A study of Rattus norvegicus with 6 samples.

Results

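The Wnt pathway genes described here are 10 listed symbols of rat nucleus pulposus cells (NPCs): the R-spondin receptors Lgr4, Lgr5 and Lgr6, the target and feedback genes Axin2, Znrf3 and Lef1, the ligand Wnt5a, and the secreted modulators Sfrp1, Sfrp2 and Dkk3. They were looked up by symbol in the combined table of raw counts, where 9 of the 10 had a row among 20264 rows. No row carried the symbol Znrf3, which was not analysed here. Sfrp1 was below the filter on low counts, so 8 genes were tested. The list was selected on the counts of these same 6 libraries, with Lgr5 at its head because of its level with FGF21, so their differences are given as a description. No p-value of a single member is printed, and the members past a threshold are only counted beside the share of all genes past it.

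The libraries came from NPCs of the caudal discs of male wild type Sprague-Dawley rats, kept as primary cultures in medium with fetal bovine serum. All 6 libraries were from cells exposed to tert-butyl hydroperoxide (TBHP), an oxidant used to bring on senescence. In the TBHP group (n = 3) nothing else was added, and in the TBHP+FGF21 group (n = 3) recombinant FGF21 was given together with TBHP. No library of untreated cells was analysed here. In the treatment labels of the TBHP+FGF21 group, replicate 1 carries FGF21, replicate 2 FGF22 and replicate 3 FGF23, while the series text gives FGF21 throughout, and libraries were grouped by title. The series text calls the replicates biological, without saying whether they came from separate rats, so the spread between libraries may be partly technical.

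Wnt proteins bind Frizzled receptors with the co-receptors Lrp5 and Lrp6, which halts the destruction complex built on Axin and Apc, so that beta-catenin enters the nucleus and acts with TCF and LEF factors on target genes. Znrf3 and Rnf43 are ubiquitin ligases that clear Frizzled from the cell surface, and R-spondins bound to Lgr4, Lgr5 or Lgr6 take these ligases away. Lgr5 is best known as a marker of stem cells in the intestine and hair follicle, where it is itself a Wnt target. In the disc, Wnt signalling is known for its part in development and has been linked to degeneration.

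The upstream sequences of 2 genes are shown because they contrast a textbook target of TCF and LEF factors (Axin2) with a modulator whose level stood high in a pair of TBHP+FGF21 libraries (Sfrp2). Each is the 250 bases before the RefSeq start in GRCr8, on the plus strand, at chr10:94398535-94398784 for Axin2 and chr2:171387286-171387535 for Sfrp2. Capitals mark the core letters that TCF and LEF factors are known to bind, searched on both strands as CTTTGAT and as its variants in the last letters, namely CTTTGAA together with CTTTGTT besides CTTTGTA.
Axin2: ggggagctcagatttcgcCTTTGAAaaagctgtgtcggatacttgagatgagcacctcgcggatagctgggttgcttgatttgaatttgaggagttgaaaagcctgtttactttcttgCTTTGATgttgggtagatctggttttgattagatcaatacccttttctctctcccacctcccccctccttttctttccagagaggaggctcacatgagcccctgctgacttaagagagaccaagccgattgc
Sfrp2: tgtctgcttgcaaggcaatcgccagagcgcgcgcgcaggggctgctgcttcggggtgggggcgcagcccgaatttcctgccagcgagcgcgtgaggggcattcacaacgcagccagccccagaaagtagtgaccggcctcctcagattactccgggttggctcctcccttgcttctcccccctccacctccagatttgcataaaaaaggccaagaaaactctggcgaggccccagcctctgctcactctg
The window of Axin2 held 2 matches, which begin 232 and 132 bases before the start, and that of Sfrp2 held none. Of all 33469 windows of this length, 14.9% held at least 1 match and 1.73% held 2 or more. RefSeq windows were at hand for 6 of the 10 genes (Lgr4, Lgr6, Axin2, Lef1, Wnt5a and Sfrp2), and Axin2 was the only one with a match. A match is a string of letters and was not tested as a binding site.

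The combined table held between 18277732 and 22426190 counts per library. Levels are CPM, the counts scaled to the effective library size of edgeR's TMM method, and since transcript lengths were not used, a CPM is compared between libraries and not between genes. Over the 11426 genes tested, replicate 2 of the TBHP+FGF21 group stood apart from its own group. Its root-mean-square log2 difference was 0.224 to 0.230 from the TBHP libraries and 0.309 to 0.357 from the others of its group. Its level lay within the range of the TBHP libraries for 64.4% of the genes, against 38.6% for replicate 1 and 35.4% for replicate 3. The results below are therefore given with and without it, and since it was singled out by its measured values, what is called without it is no independent evidence. Of the defining genes of notochordal nucleus pulposus cells, Tbxt, Noto and Shh had no count in any library. Acan, the cartilage and disc proteoglycan, was between 2506 and 4355 CPM and Col1a1, the fibroblast and annulus collagen, between 27868 and 42463 CPM. Not every marker of these cell types was high. Col2a1 was at 0.41 to 0.78 CPM, Matn3 at 0.09 to 0.45 CPM and Col1a2 at 0.39 to 0.77 CPM. In the quasi-likelihood test of edgeR, 1 gene passed an adjusted p of 0.05 (Benjamini-Hochberg), which is 0.00875% of those tested. It was Sirt1, which is no member and whose combined counts are not those of any per-sample row, and 1019 genes (8.92%) had an unadjusted p under 0.05.

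Among the receptors, Lgr5 was over 3 times as high in replicates 1 and 3 of the TBHP+FGF21 group as in the TBHP group. In the order of the replicate numbers, it was at 41.9, 49.2 and 44.5 CPM with TBHP and at 141, 45.1 and 167 CPM with TBHP+FGF21. This order is kept for all genes below. Replicates 1 and 3 with FGF21 lay above every TBHP library and replicate 2 lay among them, so the groups overlapped. Over the mean of the TBHP group, the level was 3.13-fold in replicate 1, 0.997-fold in replicate 2 and 3.70-fold in replicate 3. As mean ± SD of 3 libraries, Lgr5 was at 45.2 ± 3.68 CPM with TBHP and 117.9 ± 64.4 CPM with FGF21 added. In these bulk libraries, a larger share of cells that express Lgr5 and more Lgr5 RNA per cell cannot be told apart. The raw counts behind these levels were 751, 1085 and 949 in the TBHP group and 2984, 942 and 3836 in the TBHP+FGF21 group, so counting error is small beside the gap between libraries.

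The log2 fold change of Lgr5 was 1.38 ± 0.34 (SE), and 14 of the 11426 genes had a higher one. With TBHP+FGF21 replicate 2 left out it was 1.78 ± 0.11 (SE), and with replicate 1 of that group alone, whose label names FGF21, it was 1.65 ± 0.14 (SE). Leaving out replicate 3 of that group gave 1.05. Within the TBHP+FGF21 group Lgr5 spanned 1.88 on the log2(CPM + 0.5) scale, the 14th widest span of all genes tested, whereas in the TBHP group it spanned 0.23, which ranked 6289th.

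Lgr4, the more broadly expressed receptor, did not follow Lgr5. It was at 29.9, 37.0 and 38.6 CPM in the TBHP libraries and at 35.1, 32.8 and 26.2 CPM in the TBHP+FGF21 libraries. The lowest value was in replicate 3 of the TBHP+FGF21 group, one of the libraries where Lgr5 was high, and the groups overlapped. Its log2 fold change was -0.17 ± 0.13 (SE), -0.19 with TBHP+FGF21 replicate 2 left out and -0.05 with replicate 3 left out. Lgr6 was barely detected, with 8, 11 and 10 counts in the TBHP libraries and 12, 14 and 14 counts in the TBHP+FGF21 libraries. In CPM these were 0.45, 0.50 and 0.47 against 0.57, 0.67 and 0.61, so every TBHP+FGF21 library lay above every TBHP library, by 1 to 6 counts. With 69 counts in all, its log2 fold change of 0.38 had a standard error of 0.36. The gene passed the filter on low counts only through the TBHP+FGF21 libraries, where it was higher. Nothing is therefore read from the sign of its difference or from the lack of overlap.

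**Figure D1:**
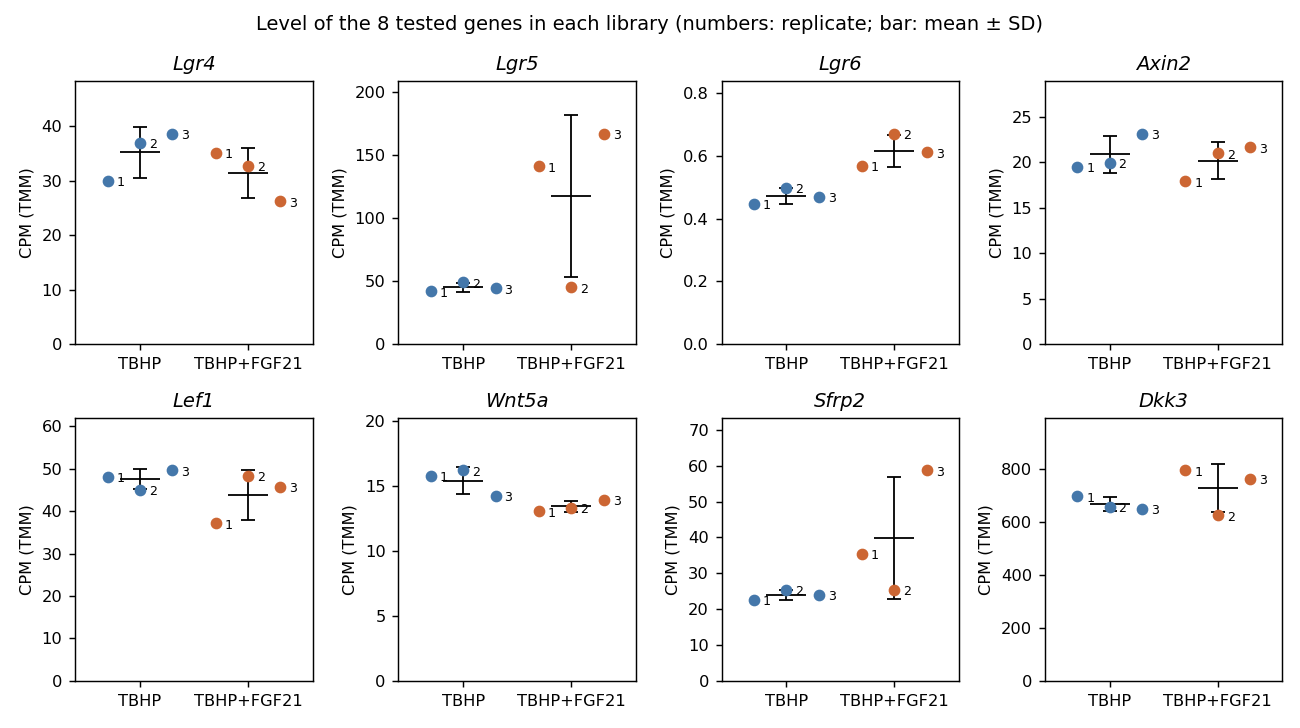
Level of the 8 tested genes in each of the 6 libraries, in CPM after TMM scaling on an axis from 0. Points are libraries with their replicate number, and bars are the mean ± SD of 3 libraries. Replicates 1 and 3 of the TBHP+FGF21 group stand at 141 and 167 CPM for Lgr5 and at 35.5 and 58.7 CPM for Sfrp2, with replicate 2 beside the TBHP libraries.

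The target and feedback genes stayed near the levels of the TBHP group. Axin2, a scaffold of the destruction complex that beta-catenin itself switches on, was at 19.5, 19.9 and 23.2 CPM in the TBHP libraries and at 17.9, 21.0 and 21.7 CPM in the TBHP+FGF21 libraries. Its groups overlapped almost fully, and its log2 fold change was -0.05 ± 0.12 (SE). The sign of this value rested on single libraries, since it was 0.04 with TBHP replicate 3 left out or with TBHP+FGF21 replicate 1 left out. Lef1, a DNA-binding partner of beta-catenin and also a target gene, was at 48.1, 45.1 and 49.6 CPM in the TBHP libraries and at 37.1, 48.3 and 45.8 CPM in the TBHP+FGF21 libraries. Replicate 1 of the TBHP+FGF21 group was the lowest, and the other 2 of its group lay within the range of the TBHP libraries. The log2 fold change was -0.12 ± 0.11 (SE), -0.19 with TBHP+FGF21 replicate 2 left out and -0.0046 without replicate 1.

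Wnt5a, a ligand that mostly signals without beta-catenin, through receptors such as Ror2, was slightly lower in the TBHP+FGF21 group. Its levels were 15.8, 16.2 and 14.3 CPM in the TBHP libraries and 13.1, 13.4 and 14.0 CPM in the TBHP+FGF21 libraries. Every TBHP+FGF21 library was below every TBHP library, replicate 2 included. The gap between the nearest libraries, 14.3 and 14.0 CPM, was smaller than the SD of either group (1.04 and 0.45 CPM). The log2 fold change was -0.20 ± 0.12 (SE), and it lay between -0.24 and -0.16 as single libraries were left out. Among the 8 tested genes, the groups did not overlap for Wnt5a and Lgr6, of which Lgr6 passed the filter only through the TBHP+FGF21 libraries. Over all genes tested they did not overlap for 9.90% (4.90% higher and 5.00% lower).

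Of the secreted modulators, Sfrp2 shared the pattern of Lgr5 at a smaller size. Sfrp2 encodes a secreted protein with a Frizzled-like domain that binds Wnts. It was at 22.6, 25.4 and 24.0 CPM in the TBHP libraries and at 35.5, 25.4 and 58.7 CPM in the TBHP+FGF21 libraries. Replicates 1 and 3 with FGF21 were above all TBHP libraries, and replicate 2 was just under the highest of them. The log2 fold change was 0.73 ± 0.23 (SE), 0.98 ± 0.16 (SE) with TBHP+FGF21 replicate 2 left out and 0.35 with replicate 3 left out. Its size thus depended on single libraries, as did that of Lgr5.

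Dkk3, a member of the Dickkopf family whose link to Wnt receptors is less clear than that of Dkk1, was at 697, 658 and 650 CPM in the TBHP libraries and at 796, 627 and 763 CPM in the TBHP+FGF21 libraries. Replicates 1 and 3 with FGF21 were again the highest, but replicate 2 was the lowest of all 6. The gap between the group means, 668 ± 25.5 and 728 ± 89.7 CPM (SD, n = 3), was smaller than the larger SD. Its log2 fold change was 0.12 ± 0.11 (SE), and 0.23 ± 0.10 (SE) without replicate 2. Sfrp1 was close to undetected, with 1 count in replicate 1 of the TBHP group, 1 count in replicate 3 of the TBHP+FGF21 group and none in the other 4 libraries. A count of 0 allows up to 3 counts, which is 0.134 to 0.164 CPM by library and covers counting error only.

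None of the 8 tested genes passed an adjusted p of 0.05 by edgeR's quasi-likelihood test, and with FGF21 4 were higher and 4 lower. Of the 4 higher, Lgr6 passed the filter on low counts only through the TBHP+FGF21 libraries. The median of their log2 fold changes was 0.04, against -0.0052 over all genes tested. Of the members, 2 had an unadjusted p under 0.05 with a higher level, as did 4.63% of all genes, and no member had one with a lower level, as did 4.29%. Of these, 1 was also past a log2 fold change of 1, as were 0.534% of all genes. In the fit without TBHP+FGF21 replicate 2, 2 members were called higher (edgeR, adjusted threshold 0.05), beside 3.78% of all genes. No member was called lower, beside 3.72% of all genes. This fit drops a library in which Lgr5 and Sfrp2 lay within the range of the TBHP libraries, so its count was favoured by that choice. At an unadjusted p under 0.05 that fit held 23.6% of all genes. Nothing is read from these counts, because the genes were chosen with the same contrast in view. A level above all TBHP libraries in replicates 1 and 3 but not in replicate 2, as for Lgr5, Sfrp2 and Dkk3, was found in 15.5% of all genes tested.

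**Figure D2:**
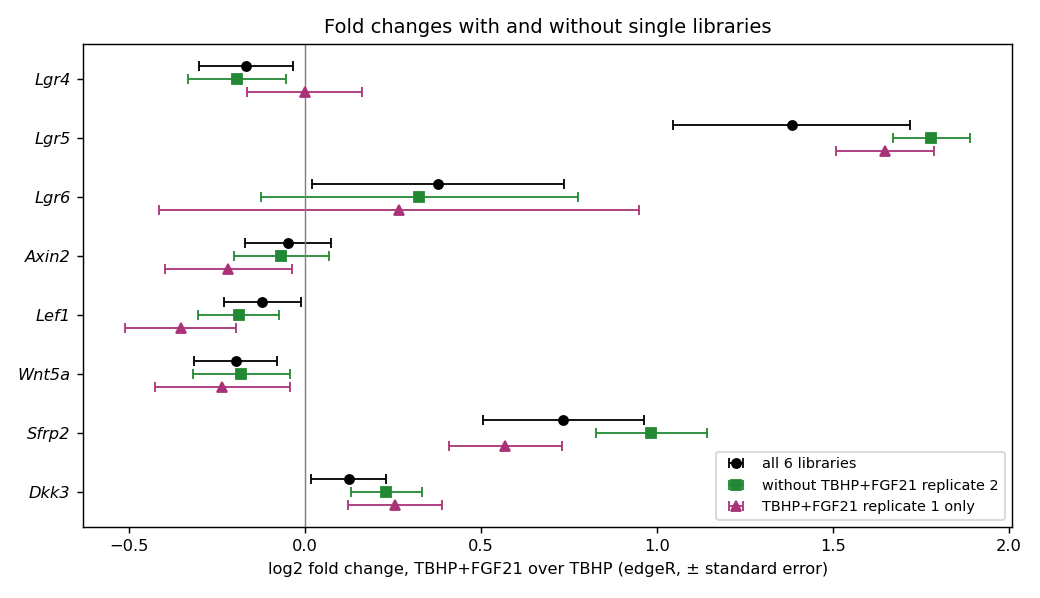
Log2 fold changes of the 8 tested genes, TBHP+FGF21 over TBHP, from edgeR with their standard errors, for all 6 libraries, with TBHP+FGF21 replicate 2 left out, and with replicate 1 of that group alone. Lgr5 lies at 1.38, 1.78 and 1.65, Sfrp2 at 0.73, 0.98 and 0.57, and the other 6 genes stay between -0.35 and 0.38.

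The same contrast was then read in 90 other Wnt pathway genes, listed by role from textbook knowledge. The list was chosen with earlier results of these data known, so its counts are a description. Of these, 83 had a row, 12 had no count in any library, 13 were below the filter and 58 were tested. No gene passed an adjusted p of 0.05 by edgeR's quasi-likelihood test, nor by DESeq2 or limma-voom. At an unadjusted p under 0.05, 7 were higher and 1 was lower with FGF21, which is 13.8% of the 58 beside 8.92% of all genes. The 7 became 1 with TBHP+FGF21 replicate 3 left out and 16 with TBHP+FGF21 replicate 2 left out. In sign, 43 were higher and 15 lower, with a median log2 fold change of 0.10, beside 48.9% higher and a median of -0.0052 over all genes. Of the 43, Wnt10b passed the filter on low counts only through the TBHP+FGF21 libraries. Of the 58, 5 genes had every TBHP+FGF21 library above every TBHP library, and 1 had every one below. Over all genes tested, 4.90% were separated upward in this way and 5.00% downward. The separated genes of the list were thus mostly higher, whereas those of all genes were split almost evenly.

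Upstream of the receptors, 5 of 18 other Wnt ligands were tested, and 6 had no count in any library. The one with the smallest p was Wnt10b, with 6 to 32 counts per library and a log2 fold change of 0.84 ± 0.46 (SE, edgeR adjusted p = 0.568). In the TBHP group only replicate 2 was above 10 counts. Wnt10b therefore passed the filter on low counts only through the TBHP+FGF21 libraries, where it was higher, and nothing is read from its sign. At these counts single libraries decided its size, since it was 1.47 with TBHP replicate 2 left out, 0.42 with TBHP+FGF21 replicate 3 left out and 0.25 with replicate 1 of the TBHP+FGF21 group alone. Of the 4 R-spondins, the ligands of the Lgr receptors, Rspo2 and Rspo4 had no count. Rspo1 was at 51.9, 46.5 and 55.8 CPM in the TBHP libraries and at 54.2, 51.8 and 57.4 CPM in the TBHP+FGF21 libraries, a log2 fold change of 0.08 ± 0.10 (SE). The groups overlapped for Rspo1, with replicate 3 with FGF21 just above the TBHP libraries and the other 2 among them. Of the 2 genes of Wnt secretion, the one with the smaller p was Porcn, which attaches the lipid of Wnt proteins (0.12 ± 0.11 SE on the log2 scale).

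All 5 Frizzled receptors and all 6 co-receptors tested had a log2 fold change above 0, with medians of 0.10 and 0.19. Among the Frizzled genes Fzd7 had the smallest p, at 0.19 ± 0.09 (SE, edgeR adjusted p = 0.553), and its groups did not overlap. Lrp5, the co-receptor of Wnt and beta-catenin signalling, was at 131, 109 and 135 CPM in the TBHP libraries and at 156, 122 and 196 CPM in the TBHP+FGF21 libraries. Replicates 1 and 3 with FGF21 were the highest and replicate 2 was among the TBHP libraries, as for Lgr5. Its log2 fold change was 0.34 ± 0.15 (SE, edgeR adjusted p = 0.553), and 0.50 (edgeR adjusted p = 0.0171) without replicate 2, but it was 0.16 with TBHP+FGF21 replicate 3 left out. Ror2, a receptor of Wnt5a, was the other co-receptor with an unadjusted p under 0.05 (0.25 on the log2 scale, edgeR adjusted p = 0.553). It was named after its values were seen, as were Wif1 and Bcl9l.

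The secreted and surface antagonists held the genes furthest apart in direction. Frzb, a secreted Frizzled-related protein like Sfrp2, was at 2.12, 1.77 and 2.86 CPM in the TBHP libraries and at 7.20, 2.54 and 6.06 CPM in the TBHP+FGF21 libraries. Here too, replicates 1 and 3 stood above all TBHP libraries and replicate 2 did not. Its log2 fold change was 1.23 ± 0.34 (SE, edgeR adjusted p = 0.553), and 1.56 (edgeR adjusted p = 0.000429) with TBHP+FGF21 replicate 2 left out. Wif1, the Wnt inhibitory factor, was at 23.9, 21.3 and 22.6 CPM against 17.8, 20.3 and 16.3 CPM, and every TBHP+FGF21 library was below every TBHP library. The log2 fold change of Wif1 was -0.32 ± 0.12 (SE, edgeR adjusted p = 0.553).

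In the cytoplasm and nucleus, 6 of 8 genes of Dishevelled and the destruction complex and all 9 TCF factors and nuclear partners tested had a log2 fold change above 0, with medians of 0.05 and 0.17. Ctnnb1, which encodes beta-catenin, was at 0.21 ± 0.10 (SE, edgeR adjusted p = 0.558). Tcf7l1, a TCF factor that mostly represses, was at 13.1, 10.4 and 12.5 CPM in the TBHP libraries and at 18.5, 11.8 and 17.4 CPM in the TBHP+FGF21 libraries. Its replicates 1 and 3 with FGF21 were high and replicate 2 was not, and its log2 fold change was 0.41 ± 0.17 (SE, edgeR adjusted p = 0.553), or 0.59 (edgeR adjusted p = 0.0179) without replicate 2. Bcl9l, a beta-catenin co-activator, was at 0.23 (edgeR adjusted p = 0.553).

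Of the 6 other beta-catenin target genes tested, 2 were higher and 4 lower, with a median log2 fold change of -0.0064. The one with the smallest p was Nkd2, an inhibitor of Dishevelled, at 0.29 ± 0.13 (SE, edgeR adjusted p = 0.553), and at 0.42 (edgeR adjusted p = 0.0299) with TBHP+FGF21 replicate 2 left out, but at 0.13 with TBHP+FGF21 replicate 3 left out. Among the planar cell polarity genes, 4 of 6 were higher, with a median of 0.09. Prickle1 had the smallest p, at 0.27 ± 0.09 (SE, edgeR adjusted p = 0.553), and its groups did not overlap. With TBHP+FGF21 replicate 2 left out, 4 of the 58 genes passed an adjusted p of 0.05 by edgeR's quasi-likelihood test (Lrp5, Frzb, Tcf7l1 and Nkd2). All were higher, beside 3.78% of all genes in that direction and 7.50% in either direction.

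**Figure D3:**
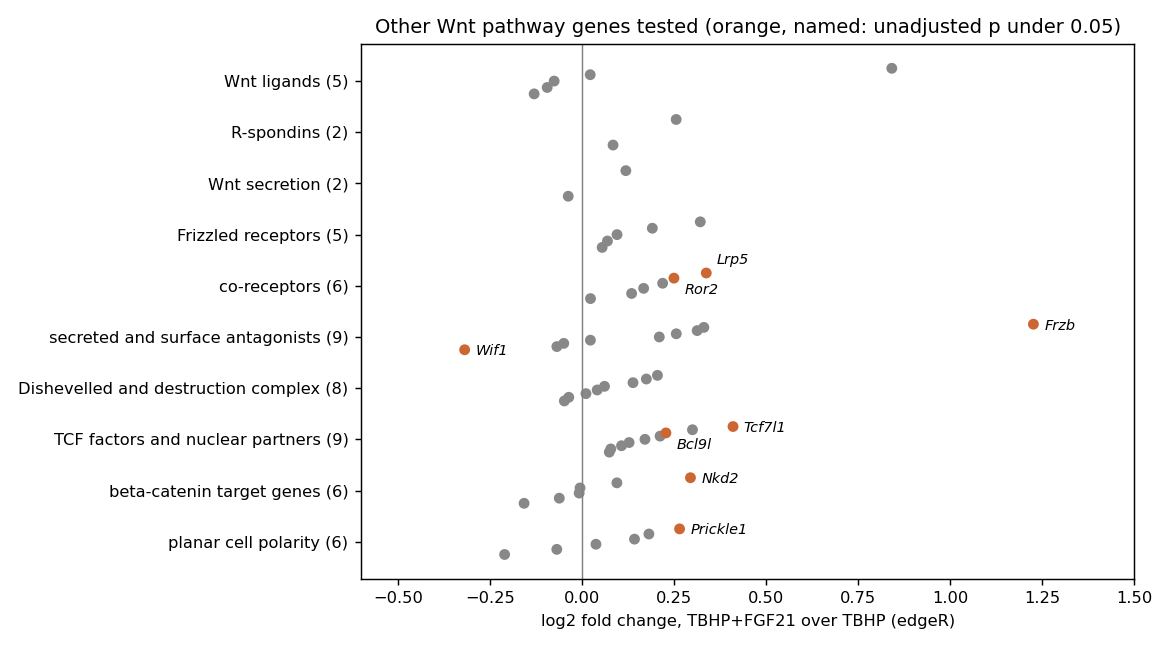
Log2 fold change of the 58 other Wnt pathway genes tested, TBHP+FGF21 over TBHP by edgeR, with 1 point per gene and 1 row per list (number tested in brackets). The 8 genes with an unadjusted p under 0.05 are orange and named. Frzb stands far to the right at 1.23, Wif1 to the left at -0.32, and all points of the receptors, co-receptors and TCF factors lie to the right of 0.

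The genes whose log2 CPM followed Lgr5 most closely over the 6 libraries were Matn2, Npr3, Vegfd, Plat and Islr. As a measure of likeness, Pearson's r with Lgr5 was 0.999, 0.997, 0.995, 0.994 and 0.991. These values rest on the 2 libraries with high Lgr5, since over the other 4 the r was 0.85, 0.87, 0.87, 0.60 and -0.37. Vegfd, a growth factor for lymphatic vessels, was at 1.01, 1.36 and 1.27 CPM in the TBHP libraries and at 4.97, 1.29 and 7.45 CPM in the TBHP+FGF21 libraries. Matn2, a matrix adaptor protein, was at 14.1, 15.4 and 15.1 CPM against 29.8, 15.2 and 33.5 CPM. Plat, which encodes tissue plasminogen activator, was at 40.0 to 42.0 CPM in the TBHP libraries and at 57.5, 43.0 and 62.5 CPM with FGF21. All 5 had their highest levels in replicates 1 and 3 of the TBHP+FGF21 group. In the same ranking of 11425 genes, Sfrp2 was 288th and Dkk3 580th, whereas Lgr4, Axin2, Lef1 and Wnt5a had a negative r.

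**Figure D4:**
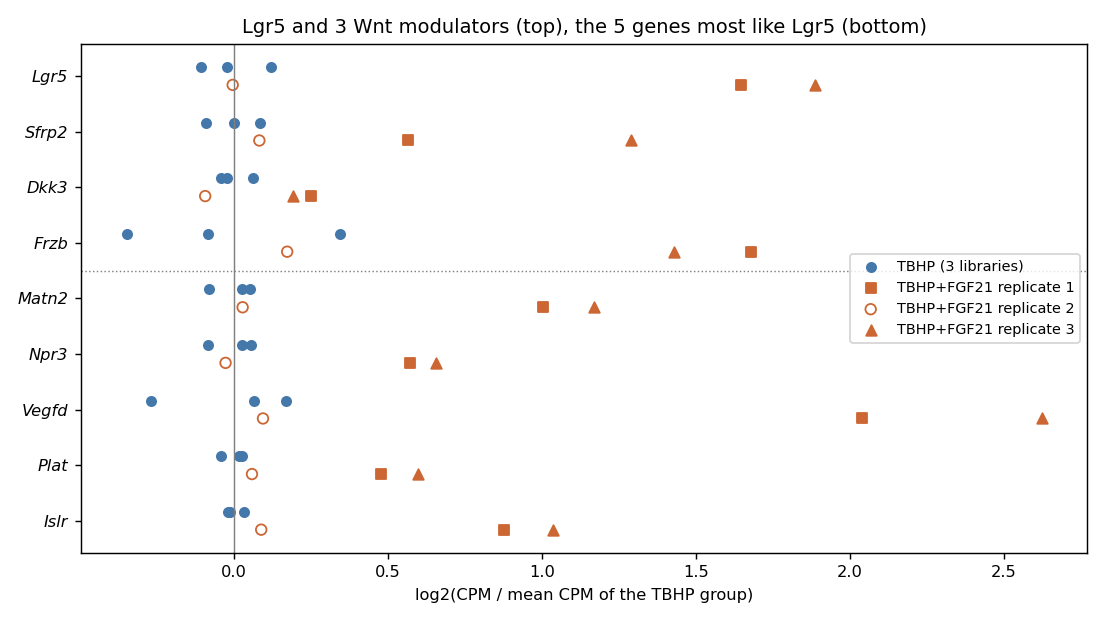
Level of Lgr5, Sfrp2, Dkk3, Frzb and the 5 genes most like Lgr5 in each library, as the log2 ratio of its CPM to the mean CPM of the TBHP group. In all 9 genes the filled orange symbols (replicates 1 and 3 of the TBHP+FGF21 group) lie to the right of every blue TBHP library, and the open circle (replicate 2) lies near 0. The genes were picked by their values in these libraries, so the shared pattern is not a result. Over all genes tested, 15.5% had replicates 1 and 3, but not replicate 2, above all TBHP libraries. Plat and Islr are not among these, since replicate 2 also lay just above all TBHP libraries for them.

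Markers of cell types were read beside these results, as the summed CPM of each list. The nucleus pulposus and cartilage matrix list (5 genes with a row) was at 2570 to 3018 in the TBHP libraries and at 3552, 2933 and 4427 in replicates 1, 2 and 3 of the TBHP+FGF21 group, and nearly all of the sum was Acan. Acan and Sox9 were high in the libraries where Lgr5 was high. Col2a1, with only 9 to 14 counts per library, and Comp lay within the range of the TBHP libraries in all 3 libraries with FGF21. Matn3 was below the filter on low counts and lower in all 3. The annulus fibrosus and fibroblast list (9 genes, with Tnmd at 0) was at 39758 to 44020 against 38332, 41637 and 29483, and nearly all of this sum was Col1a1. Col1a1 and Scx were below all TBHP libraries in replicates 1 and 3 with FGF21, whereas Pdgfra, Mkx and Lum were above all of them in the same libraries, so the list did not move as 1. The 7 notochordal genes with a row summed to 5.36 to 6.84 against 3.92 to 4.49, led by Krt8. The 4 muscle genes, mostly Des and with Myod1 and Myog at 0, were at 143 to 159 against 176, 141 and 224. Acta1 of this list went the other way, at 2.63, 3.17 and 3.66 CPM against 1.56, 4.40 and 1.40 CPM. The leukocyte list (5 genes, with Ptprc, Cd163 and Adgre1 at 0 and Cd68 the highest) was at 1.36 to 2.23 against 1.58 to 2.31. The 3 endothelial genes with a row, of which Cdh5 and Kdr had no count and Vwf was the highest, were at 0.32 to 0.45 against 0.43 to 0.65. The part of these differences in the levels of Lgr5, Sfrp2 and Frzb was not tested.

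The counts of each of the 8 tested genes were found unchanged in a row of the per-sample files, for Lgr5 in ENSRNOG00000004221. The labels name a directional library kit, but strand column 3 summed to 0.977 to 0.986 times strand column 4, and strand column 4 held 49.3% to 53.3% of the stranded counts of Lgr5 in each library. Reads from a transcript on the opposite strand therefore cannot be told apart from those of Lgr5 here. With strand column 4 alone, the log2 fold change of Lgr5 was 1.45.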

How the data were processed

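RNA-seq libraries of NPCs were grouped by their titles. The authors deposited a file of raw counts for every library, by Ensembl gene and in STAR's layout. They also deposited a combined table by symbol, whose values were handled like estimated counts because 22 rows hold fractions, which were rounded up. The submitters' processing notes name STAR and featureCounts. The genome build is not given in the sources used here. Unassigned reads (unmapped, multimapping, outside genes or ambiguous, for example 9.13% to 10.4% outside genes) stayed out. Ensembl rows were linked to symbols by identical counts (13204 rows).

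The combined table was analysed with edgeR 4.0.16 in R 4.3.3: filterByExpr (minimum count 10, minimum total 15), TMM, condition as the only term, glmQLFit and glmQLFTest, with p-values adjusted by Benjamini-Hochberg (11426 genes). SEs were obtained from the F statistic (the fold change in log2 over the root of F). Alternatives were the per-sample counts, DESeq2's size factors, DESeq2 1.42.0, limma-voom (limma 3.58.1), no filter, the replicate block, leaving out each library, and replicate 1 of the TBHP+FGF21 group alone. The fits were tested on simulated counts. For the genes named, the rule took all members, the gene with the smallest p of each pathway list, the 5 genes most like Lgr5, and the leading and undetected markers. The members and lists were chosen with earlier results of these data known. Upstream sequences are from RefSeq (GRCr8).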

Additional observations from a re-analysis of the deposited data

How the results depend on the processing

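Over 14 alternative fits, Lgr5, Sfrp2, Dkk3 and Lgr6 kept a log2 fold change above 0 wherever they were tested. Lgr4, Lef1 and Wnt5a kept one below 0, although those of Lgr4 and Lef1 came close to 0 in some fits. Lgr6 was below the filter with strand column 4. With all 6 libraries it passed that filter only through the TBHP+FGF21 libraries, where it was higher. With each library left out in turn, the values lay between 1.05 and 1.78 for Lgr5, 0.35 and 0.98 for Sfrp2, 0.07 and 0.23 for Dkk3, 0.32 and 0.44 for Lgr6, -0.26 and -0.05 for Lgr4, -0.09 and 0.04 for Axin2, -0.19 and -0.0046 for Lef1, and -0.24 and -0.16 for Wnt5a. With replicate 1 of the TBHP+FGF21 group alone they were 0.27 for Lgr6, -0.00067 for Lgr4, -0.22 for Axin2 and -0.35 for Lef1, and the lone library was assumed to vary like the others. The number of genes under an adjusted p of 0.05 was 0 with the per-sample unstranded column, strand column 4 or limma-voom (where 1082, 1049 and 996 genes had an unadjusted p under 0.05), 4 with DESeq2, 5 with no filter, 2 with the replicate block and 325 with replicate 1 of the TBHP+FGF21 group alone. It lay between 0 and 867 with a library left out, the highest without replicate 2 of the TBHP+FGF21 group. Genes past a log2 fold change of 1 with an unadjusted p under 0.05 numbered 61, but 146 with no filter, 189 with replicate 1 alone and 51 to 200 with a library left out. The 1019 genes with an unadjusted p under 0.05 became 1599 with the replicate block, 1669 with replicate 1 alone and 337 to 2732 with a library left out. Of the other Wnt pathway genes, those higher at an unadjusted p under 0.05 numbered 4 with limma-voom, 11 with the replicate block, 4 with replicate 1 alone and 1 to 16 with a library left out (of the TBHP+FGF21 group, leaving out replicate 3 gave 1 and replicate 2 gave 16). Those lower numbered 0 with strand column 4, 0 with replicate 1 alone and 0 to 1 with a library left out. Those under an adjusted p of 0.05 numbered 2 with replicate 1 alone (Frzb and Tcf7l1) and 0 to 4 with a library left out. Their median log2 fold change lay between 0.07 and 0.15 with a library left out. The cause of these moves was not tested. Whether the replicate numbers pair the libraries was not settled. Over genes, the deviations of same-numbered libraries from their group means correlated at -0.14, 0.27 and 0.18. With 3 libraries per group, these values cannot show that a pairing is absent. With the replicate block, the log2 fold change was 1.21 for Lgr5 and 0.66 for Sfrp2. The log2 fold changes of Axin2, Lef1, Lgr4, Wnt5a, Dkk3 and Lgr6 were within 2 SE of 0 with all libraries.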
